A study of Mus musculus with 4 samples.

Results

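Tiki2, the product of the gene Trabd2b, and 8 other extracellular antagonists of Wnt signalling were examined in RNA-seq of primary mouse chondrocytes, the cells that make cartilage matrix. The 9 genes were chosen by symbol and are Trabd2b, Frzb, Sfrp1, Sfrp2, Sfrp4, Wif1, Dkk2, Dkk3 and Kremen1. All 9 were found among the 25239 gene symbols of the count table. The cKO group has 2 libraries from mice with both Tiki2 alleles floxed (Tiki2 fl/fl) that also carry Col2a1-Cre/ERT, a tamoxifen-activated Cre driven by the Col2a1 promoter. The control group has 2 libraries from Tiki2 fl/fl mice without the Cre. Every culture, control ones included, received 4-hydroxytamoxifen, the compound that activates the Cre. No group carries the Cre without floxed alleles, so effects of the Cre and of losing Tiki2 cannot be told apart. The Cre acts in cells that use the Col2a1 promoter, so cells without it would keep an intact gene. Strain, age and animal numbers are left unstated in the sources used here. The p-values therefore measure the spread between these libraries only, and between the cKO libraries that spread may be technical.

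Wnt proteins act on target cells by joining a Frizzled receptor to a co-receptor, Lrp5 or Lrp6, which stabilises β-catenin. Extracellular antagonists interrupt this step at different points. Tiki2 is a membrane-bound protease that cuts and inactivates Wnt proteins, the secreted frizzled-related proteins and Wif1 bind Wnts outside the cell, and Dkk proteins with their receptors of the Kremen family act on the co-receptors. In cartilage, Wnt/β-catenin activity has to be held low for chondrocytes to keep their identity, and Frzb is a classical cartilage member of the group.

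Total counts were 76425194 and 78873054 in cKO replicates 1 and 2, and 66750140 and 77285899 in control replicates 1 and 2. The libraries carried the markers of chondrocytes. Col2a1, the main cartilage collagen, had 7792 and 5381 CPM (counts scaled to the TMM-adjusted library size) in cKO, against 14352 and 17760 CPM in controls. Acan, which encodes aggrecan, had 1772 and 1327 CPM in cKO, against 3307 and 3581 CPM in controls, and the transcription factor Sox9 had 197 and 157 CPM in cKO, against 228 and 232 CPM in controls. Control replicate 1 stands apart by sex: it had 112185 counts of Xist and 0 of the Y-linked Ddx3y, while the other libraries had 36 to 171 and 11073 to 12085. The 2 control libraries therefore do not come from 1 and the same animal. EdgeR fits without control replicate 1 are given beside the calls of the 9 antagonists, of the markers and of the feedback targets. In bulk RNA, fewer cells of a type and less RNA per cell cannot be told apart.

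RefSeq promoter windows (GRCm38.p6) were found for 4 of the 9 genes, Frzb, Sfrp2, Wif1 and Dkk2. Those of Dkk2 and Sfrp2 are shown because Dkk2 had the largest fold change of the 9 genes, Sfrp2 the largest spread between libraries of 1 group, and neither window reaches into the annotated gene. Each is the 250 bases before the start site, on the plus strand, at chr3:132085042-132085291 for Dkk2 and chr3:83766071-83766320 for Sfrp2. Capitals mark TATAAA, the TATA box letters, on either strand.
Dkk2: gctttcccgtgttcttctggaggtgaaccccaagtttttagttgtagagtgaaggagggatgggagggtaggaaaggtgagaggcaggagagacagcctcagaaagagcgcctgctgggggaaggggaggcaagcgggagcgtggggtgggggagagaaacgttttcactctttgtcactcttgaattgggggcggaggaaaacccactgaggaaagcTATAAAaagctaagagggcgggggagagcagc
Sfrp2: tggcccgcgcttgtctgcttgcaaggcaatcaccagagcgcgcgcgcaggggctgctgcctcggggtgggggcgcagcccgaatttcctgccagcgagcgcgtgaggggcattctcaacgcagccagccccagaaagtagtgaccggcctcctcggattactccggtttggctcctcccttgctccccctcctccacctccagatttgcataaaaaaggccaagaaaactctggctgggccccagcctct
The Dkk2 window holds 1 such match, beginning 32 bases before the start site, and the Sfrp2 window holds none. Of the windows not shown, that of Wif1 holds 1, on the opposite strand and 232 bases before the start site. That of Frzb holds none. TATAAA occurs in 12.4% of the 32851 RefSeq windows of this length. None of the 4 windows holds CTTTG followed by AA, AT, TA or TT, letters that TCF and LEF factors of the Wnt pathway bind, on either strand, and 14.8% of all windows do. A window without a match says only that these letters are not in it.

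Trabd2b, the floxed gene (ENSMUSG00000070867.4, protein-coding, mm10 chromosome 4, 114406724 to 114615098, plus strand), kept most of its RNA in the cKO cultures. It had 22643 and 29473 counts in cKO, against 28513 and 31314 counts in controls. Scaled by library, this was 292 and 363 CPM in cKO, against 436 and 415 CPM in controls. Both cKO libraries lay below both controls, at 68.6% and 85.2% of the control mean. The log2 fold change was -0.38 ± 0.11 (SE), with a 95% interval from -0.64 to -0.12, and it did not pass the threshold of 0.05 (edgeR quasi-likelihood, p adjusted over all genes = 0.148). It passed in DESeq2 (adjusted p = 0.00743) and in edgeR without cKO replicate 2 (log2 fold change -0.54). Without control replicate 1 it did not pass in edgeR (log2 fold change -0.34). These edgeR fits leave 1 library in a group. The counts cover the whole gene, which spans 208375 bases, so they do not single out reads of the floxed exons.

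Frzb was the 1 member of the 9 that passed the test, and it fell in cKO; none passed in the other direction. Across the 15522 genes tested, 61 were called higher and 141 lower by edgeR, 1.30% in all and 0.908% in the lower direction. Scaling by library size alone gave 116 higher and 123 lower, and Frzb passed there too (edgeR adjusted p = 0.0395). At an unadjusted edgeR p under 0.05, 4 members were higher and 2 lower, where 8.36% of all genes were higher and 8.88% lower, 17.2% together. By DESeq2, 3 members were called higher and 2 lower, where it called 3.70% of the 14017 genes it gave an adjusted p higher and 4.58% lower, 8.28% together. By limma-voom 0 members were called higher and 1 lower, where 0.683% of all genes were called higher and 1.46% lower, 2.15% together. The groups did not overlap in CPM for 8 of the 9 members, 6 higher and 2 lower in cKO, where 24.9% of all tested genes were higher and 24.9% lower without overlap, 49.8% together. The median log2 fold change was 0.37 over the 9 members and 0.00 over all genes tested.

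**Figure D1:**
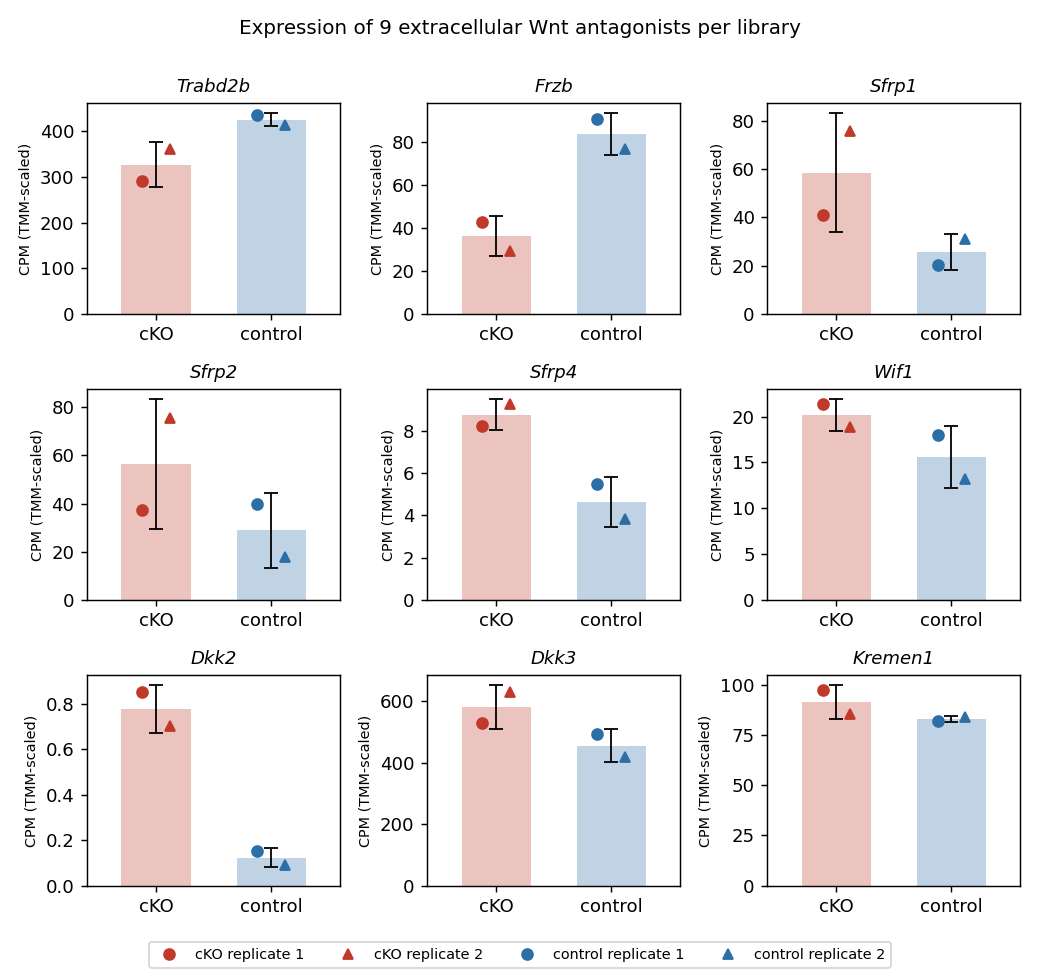
Expression of the 9 antagonists in each library, in TMM-scaled CPM on a linear axis from 0, with cKO left of control. Bars are means of 2 libraries, lines are 1 SD, circles are replicate 1 and triangles replicate 2. Only Sfrp2 has groups that overlap, and Trabd2b sits at 292 and 363 CPM in cKO, against 436 and 415 CPM in controls.

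The secreted frizzled-related proteins carry a cysteine-rich domain like that of Frizzled receptors and bind Wnts. Frzb (mm10 chromosome 2, 80411970 to 80447625, minus strand), a Wnt-binding protein of developing cartilage, had 42.6 and 29.4 CPM in cKO, against 90.4 and 76.5 CPM in controls. All pairs of a cKO and a control library showed a lower Frzb level in cKO, with log2 ratios between -1.62 and -0.85. It was 2.32-fold lower in cKO (95% interval 1.72 to 3.13), a log2 fold change of -1.21 ± 0.18 (SE; edgeR adjusted p = 0.0417, 150th lowest p of 15522). The edgeR call was lost without control replicate 1 (log2 fold change -1.09) and without control replicate 2 (-1.33). It held without cKO replicate 1 (-1.51) and without cKO replicate 2 (-0.97). Each of these fits leaves 1 library in a group, and the calls over all genes moved widely among them.

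Sfrp1 (chromosome 8, 23411502 to 23449632), a soluble Wnt inhibitor, had 41.2 and 76.0 CPM in cKO, against 20.4 and 31.0 CPM in controls. The groups did not overlap, but cKO replicate 2 had nearly double the level of cKO replicate 1, a log2 difference of 0.89 within the group. The fold change was 2.28 (95% interval 1.34 to 3.87; log2 1.19 ± 0.32 SE), with an edgeR adjusted p of 0.133. The edgeR log2 fold change was 1.56 without cKO replicate 1, 0.68 without cKO replicate 2 and 0.92 without control replicate 1. Sfrp1 passed in the first of these fits only, and each leaves 1 library in a group.

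Sfrp2 (chromosome 3, 83766321 to 83774316), which stromal fibroblasts commonly express, had 37.4 and 75.5 CPM in cKO, against 39.8 and 17.9 CPM in controls. These groups overlapped, since cKO replicate 1 lay just under control replicate 1. The log2 fold change was 0.97 ± 0.44 (SE), with a 95% interval from -0.10 to 2.04 (edgeR adjusted p = 0.335). Within each group the libraries differed by as much, by 1.02 between the cKO libraries and -1.16 between the controls (log2, replicate 2 over replicate 1). Without cKO replicate 2 the log2 fold change was 0.38, and without control replicate 1 it was 1.66. The annotation places an antisense gene, Gm26771, over Sfrp2, and whether counting used the strand is left unstated in the sources used here, so reads of the pair cannot be told apart.

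Sfrp4 (chromosome 13, 19623104 to 19632994), a relative known from bone and connective tissue, was low. It had 8.27 and 9.30 CPM in cKO, against 5.47 and 3.81 CPM in controls, with no overlap. The fold change was 1.89 (95% interval 1.31 to 2.74; log2 0.92 ± 0.22 SE), and the edgeR adjusted p was 0.109. DESeq2 called it higher (adjusted p = 0.00779), and without control replicate 1 the edgeR adjusted p was 0.146.

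Set side by side per kilobase of exon, the make-up of the secreted frizzled-related transcripts differed between the groups while their sum did not separate them. The 4 genes together had 41.9 and 63.8 CPM per kilobase in cKO, against 52.4 and 39.9 CPM per kilobase in controls. Frzb made up 31.4% and 14.2% of that sum in cKO, against 53.3% and 59.2% in controls. Sfrp1 made up 22.5% and 27.3% in cKO, against 8.89% and 17.8% in controls, and Sfrp2 made up 41.4% and 55.0% in cKO, against 35.3% and 20.8% in controls. The log2 ratio of Frzb to the sum of Sfrp1, Sfrp2 and Sfrp4 was -1.13 and -2.59 in cKO, against 0.19 and 0.54 in controls. Frzb was the most abundant of the 4 in both controls, and Sfrp2 was in both cKO libraries. These shares were chosen with the fold changes known and carry no test.

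**Figure D2:**
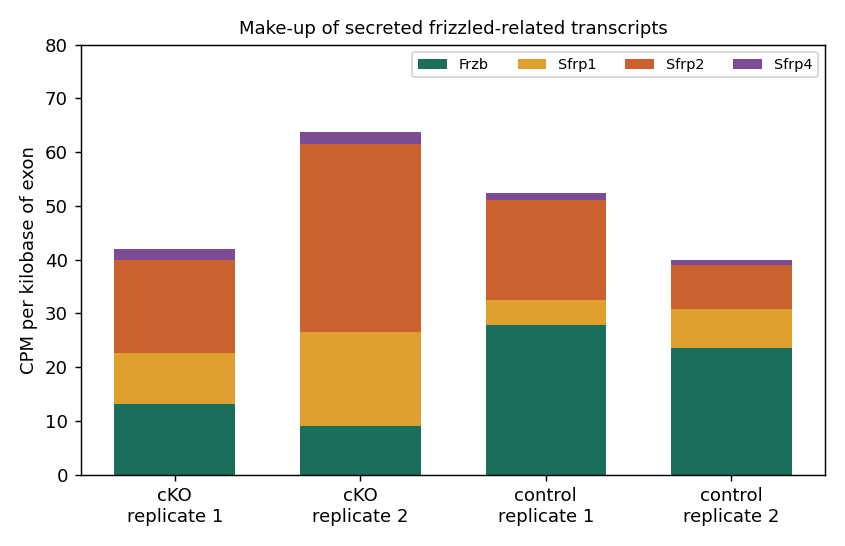
Summed level of the 4 secreted frizzled-related genes in each library, in CPM per kilobase of exon, split by gene from Frzb at the base to Sfrp4 at the top, with the cKO libraries on the left. Frzb is 31.4% and 14.2% of the bar in cKO and 53.3% and 59.2% in controls, while the bar heights of the groups overlap.

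Wif1 (chromosome 10, 121033960 to 121100650), a secreted protein that binds Wnts and keeps them from their receptors, had 21.4 and 18.9 CPM in cKO, against 18.0 and 13.2 CPM in controls. The groups did not overlap, though cKO replicate 2 and control replicate 1 differed by 0.07 on the log2 scale. The log2 fold change was 0.37 ± 0.16 (SE), with a 95% interval from -0.02 to 0.76 (edgeR adjusted p = 0.310). No alternative called it.

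Dkk2 and Dkk3 belong to the Dickkopf family, whose classical members bind the co-receptors Lrp5 and Lrp6; Dkk3 is a divergent member that is not a typical co-receptor blocker. Dkk2 (chromosome 3, 132085292 to 132180304) was near the limit of detection, with 66 and 57 counts in cKO, against 10 and 7 counts in controls. It had 0.851 and 0.701 CPM in cKO, against 0.153 and 0.0928 CPM in controls, and every cKO library was above every control. The fold change was 6.28 with a wide 95% interval, 1.91 to 20.6 (log2 2.65 ± 0.71 SE), and it did not pass (edgeR adjusted p = 0.135; DESeq2 adjusted p = 0.0216). Without control replicate 1 the log2 fold change was 3.04 with an edgeR adjusted p of 0.295. Dkk2 entered the test through its cKO level, since 2 cKO libraries but 1 control library exceeded the filter of 0.130 CPM, so a difference was built into its selection.

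Dkk3 (chromosome 7, 112116017 to 112159057) was the most abundant of the 9 in CPM and per kilobase. It had 530 and 631 CPM in cKO, against 494 and 417 CPM in controls, with no overlap but a gap of 0.10 (log2) between the nearest libraries. Its log2 fold change was 0.35 ± 0.11 (SE), 95% interval 0.07 to 0.62 (edgeR adjusted p = 0.193). DESeq2 called it higher (adjusted p = 0.0226), as did edgeR without cKO replicate 1 (log2 fold change 0.47). Without control replicate 1 Dkk3 did not pass in edgeR (log2 fold change 0.48). These edgeR fits leave 1 library in a group.

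Kremen1 (chromosome 11, 5191552 to 5261558), a membrane receptor that with Dkk proteins removes the co-receptor from the cell surface, showed the narrowest interval. It had 97.5 and 85.7 CPM in cKO, against 82.1 and 84.1 CPM in controls. The log2 fold change was 0.14 ± 0.08 (SE), and the 95% interval, -0.04 to 0.32, leaves out a change of 2-fold in either direction (edgeR adjusted p = 0.417). The annotation places a small nuclear RNA gene, Gm25142, inside Kremen1 on the other strand.

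**Figure D3:**
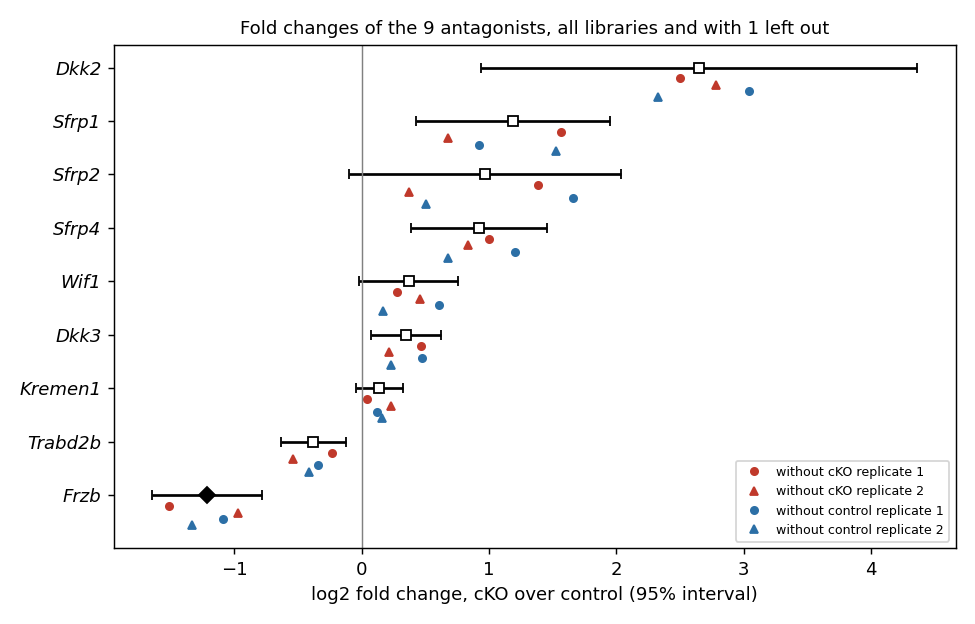
Log2 fold change of each antagonist, cKO over control, with its 95% interval (squares, or a filled diamond for Frzb, which passed at an edgeR adjusted p of 0.0417) and the value with each library left out (red for a cKO library, blue for a control library). Trabd2b and Frzb lie below 0 and the other 7 above 0 in all 4 fits with a library left out. For genes whose groups do not overlap, leaving out a library can hardly change the side.

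Compared per kilobase of exon, Dkk3 was at the head of the 9 genes at 173 ± 21.3 CPM per kilobase in cKO and 136 ± 16.2 in controls (SD, n = 2 each). Trabd2b came next at 49.5 ± 7.55 CPM per kilobase in cKO and 64.3 ± 2.21 in controls. Below them, the cKO order was Sfrp2, Sfrp1, Kremen1, Frzb, Wif1, Sfrp4 and Dkk2, and the control order was Frzb, Sfrp2, Kremen1, Wif1, Sfrp1, Sfrp4 and Dkk2. Frzb and Sfrp1 moved furthest between these orders. Frzb was at 11.1 ± 2.88 CPM per kilobase in cKO and 25.8 ± 3.02 in controls, and Sfrp1 at 13.4 ± 5.64 in cKO and 5.87 ± 1.72 in controls. In cKO the neighbours from Sfrp2 to Frzb overlapped between libraries, and in controls Sfrp2 overlapped with Kremen1 and Wif1 with Sfrp1. At the low end Dkk2 had 0.210 ± 0.0286 CPM per kilobase in cKO and 0.0332 ± 0.0115 in controls.

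Markers of some cell types also differed between the groups. Of 14 chondrocyte markers 12 were called lower and none higher (edgeR), and their summed counts were 16698 and 12493 CPM in cKO, against 28385 and 33028 CPM in controls (library size alone). Of 12 fibroblast and stromal markers 4 were called higher and none lower. Over all genes tested, edgeR called 0.908% lower and 0.393% higher. The fibroblast sums were 10544 and 11242 CPM in cKO, against 8275 and 8209 CPM in controls. Without control replicate 1 the calls were 1 chondrocyte marker lower and 0 fibroblast markers, as they were without control replicate 2, and the median log2 fold changes without control replicate 1 were -1.37 and 0.72. By edgeR none of the 7 adipocyte markers tested passed, and limma-voom called 0. DESeq2 called 4 of them higher and 0 lower, where it called 3.70% of all genes higher. At an unadjusted edgeR p under 0.05, 5 were higher, where 8.36% of all genes were. The sums of the 8 listed were 306 and 500.0 CPM in cKO, against 202 and 204 CPM in controls, with Lep at 0. The library with the highest adipocyte and fibroblast sums and the lowest chondrocyte sum, cKO replicate 2, also had the highest Sfrp1, Sfrp2, Sfrp4 and Dkk3. Dkk2, Wif1 and Kremen1 were instead highest in cKO replicate 1, and Trabd2b and Frzb in control replicate 1. Sums of 8 osteoblast markers were 5561 and 6278 CPM in cKO, against 6746 and 5495 CPM in controls, and those of 8 muscle markers were 60.6 and 13.1 CPM in cKO, against 4.58 and 27.3 CPM in controls, with Pax7 at 0. The 8 macrophage and 8 endothelial markers summed to at most 25.0 and 4.40 CPM in any library, with C1qb and Emcn at 0. The part of these markers in the results on the antagonists was not tested.

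Set against the chondrocyte markers, Frzb did not separate the groups. It had 2.59 and 2.42 counts per 1000 counts of the 14 chondrocyte markers in cKO, against 3.12 and 2.26 in controls. Trabd2b had 17.7 and 29.9 on the same scale in cKO, against 15.0 and 12.3 in controls, so it was higher in cKO relative to these markers and lower relative to all RNA. The other 7 antagonists were all higher in cKO on that scale, with no overlap. The marker sum was itself lower in cKO, so any gene that fell less than the markers comes out higher. The share of all genes that do so was not computed, so the count of 7 is not read as particular to the antagonists. The scale rests largely on Col2a1, which made up 44.4% to 52.5% of the marker sum. Set against the fibroblast markers, Trabd2b was lower in cKO, with 28.1 and 33.2 counts per 1000 counts of these markers in cKO, against 51.6 and 49.4 in controls. Frzb was lower too, at 4.10 and 2.69 in cKO, against 10.7 and 9.10 in controls. Kremen1, above the controls relative to all RNA, was below them on this scale, at 9.38 and 7.86 in cKO, while the lower control had 9.72. Sfrp1 had 3.96 and 6.97 in cKO, against 2.41 and 3.68 in controls. Sfrp4 and Dkk2 were also higher without overlap, while Sfrp2, Dkk3 and Wif1 overlapped between the groups. The fibroblast marker sum was itself higher in cKO, which lowers ratios to it there. The share of all genes without overlap on this scale was not computed either. These ratios were chosen after the data were seen and have no test.

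The genes whose level over the 4 libraries ran closest to that of a member were found by the Euclidean distance of mean-centred log2 CPM, among 12085 genes outside the 9. For Frzb they were Atf3, a stress-induced transcription factor, Chadl, a cartilage matrix protein, and Slc7a11, a cystine transporter, at distances of 0.06 to 0.09. Chadl had 17.4 and 12.9 CPM in cKO, against 39.0 and 32.2 CPM in controls. For Sfrp1 they were Wnt2b, a Wnt ligand, Arc, an immediate early gene, and Adcy5, an adenylate cyclase, all at 0.21. Wnt2b had 3.87 and 5.83 CPM in cKO, against 1.74 and 2.61 CPM in controls. For Trabd2b they were Slc25a29, Pex11g and Mybl2 at 0.03 to 0.04. With 4 libraries many genes share a profile, and the distances are a description.

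Of 15 other extracellular antagonists and modulators, 14 had a row in the table and 7 passed the filter on low counts. The most abundant in CPM was Igfbp4, a secreted binding protein of insulin-like growth factors, named after its values were seen. It had 624 and 926 CPM in cKO, against 632 and 399 CPM in controls, so the groups overlapped (edgeR log2 fold change 0.59 ± 0.25 SE, adjusted p = 0.312). The other 6, Notum, Sostdc1, Apcdd1, Draxin, Tpbg and Bambi, lay between 3.91 and 23.3 CPM in every library. Sfrp5, Dkk4, Kremen2, Sost and Cer1, named after their values were seen, had 0 counts in all 4 libraries, 5 genes in all. A count of 0 allows up to 3 counts, or 0.0380 to 0.0449 CPM in these libraries, counting error only. Dkk1 had 0 and 3 counts in cKO, against 0 and 0 in controls. The median log2 fold change of the 7 tested was 0.19. DESeq2 called 1 of them higher, where it called 3.70% of all genes higher. Limma-voom called 0, where it called 2.15% of all genes. By edgeR none passed, where 1.30% of all genes did, and 2 reached an unadjusted p under 0.05, where 17.2% of all genes did. Those 2 were Draxin, an axon guidance protein that binds Wnt co-receptors, and Notum, a secreted enzyme that removes the Wnt lipid. Draxin had 15.1 and 22.0 CPM in cKO, against 11.2 and 5.94 CPM in controls (edgeR adjusted p = 0.151), and Notum had 6.56 and 9.94 CPM in cKO, against 5.20 and 4.59 CPM in controls (adjusted p = 0.183).

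The ligands and receptors on which the antagonists act gave no call in the edgeR fit of all libraries. By edgeR none of 10 Wnt ligands and 16 receptors and co-receptors tested passed, where 1.30% of all genes did. At that share, lists of this size would hold few calls or none. An unadjusted edgeR p under 0.05 was reached by 3 ligands and 7 receptors, where 17.2% of all genes reached it. DESeq2 called 1 ligand and 3 receptors, where it called 8.28% of all genes. Limma-voom called 0 of both, where it called 2.15% of all genes. No test set these counts against those of all genes. The median log2 fold changes were 0.37 and 0.18. Wnt2b had a log2 fold change of 1.15 ± 0.32 (SE) and Wnt5b of 0.64 ± 0.25 (edgeR adjusted p = 0.147 and 0.267). Ptk7, a Wnt co-receptor, was at 0.28 ± 0.07 and Fzd9, a Frizzled receptor, at -0.52 ± 0.13 (edgeR adjusted p = 0.112 and 0.115). Of the 8 R-spondins and R-spondin receptors tested, none passed by edgeR, and 1, Lgr5, reached an unadjusted p under 0.05. Neither DESeq2 nor limma-voom called any (0 each). The shares of all genes given above apply to this list too. Lgr5 was at 0.89 ± 0.30 and Lgr4 at -0.16 ± 0.08 (log2 fold change ± SE; edgeR adjusted p = 0.209 and 0.369).

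Feedback targets of Wnt/β-catenin signalling are read beside the antagonists because several of them dampen the same pathway. Of 16 tested, 2 rose by edgeR, the scaffold gene Axin2 and the cyclin gene Ccnd1, and none fell; over all genes tested, 0.393% were called higher. DESeq2 made 4 calls and limma-voom 2 calls among the targets, each in the higher direction. Over all genes, DESeq2 called 3.70% higher and limma-voom 0.683%. At an unadjusted edgeR p under 0.05, 7 were higher and 2 lower, where 8.36% and 8.88% of all genes were. Those 2 were Lef1, a transcription factor of the pathway, and Myc, a growth regulator, with log2 fold changes of -0.50 and -0.22 (edgeR adjusted p = 0.242 and 0.254). Some of the targets also stand in the lists above. Axin2 had 13.4 and 12.8 CPM in cKO, against 6.18 and 5.20 CPM in controls (edgeR adjusted p = 0.0309). Ccnd1 had 226 and 208 CPM in cKO, against 146 and 152 CPM in controls (edgeR adjusted p = 0.0289). Fgf18, a growth factor of cartilage, was at 1.63 ± 0.39 and Jag1, a Notch ligand, at 0.45 ± 0.11 (log2 fold change ± SE; edgeR adjusted p = 0.112 and 0.116). With either control library left out no target passed by edgeR, and without cKO replicate 2 Ccnd1 alone passed.

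**Figure D4:**
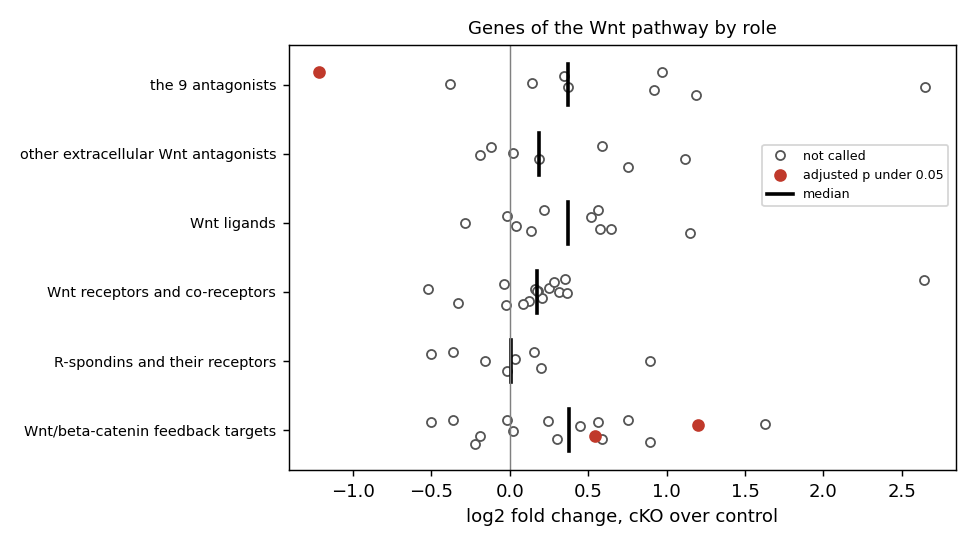
Log2 fold changes, cKO over control, of the tested genes of the Wnt pathway by role, 1 point a gene, filled red at an edgeR adjusted p under 0.05, with a bar at each list's median. The calls are Frzb among the 9 antagonists and Axin2 and Ccnd1 among the feedback targets, and the medians run from 0.01 for R-spondins and their receptors to 0.38 for the targets.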

How the data were processed

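The deposited data are raw counts per gene symbol, unscaled whole numbers, in 1 column for each of the 4 poly(A) RNA libraries. HISAT2 2.2.1, StringTie 2.1.7, Trim Galore 0.6.7, FastQC 0.11.9 and the build mm10 are listed in the submitters' processing notes, without their roles. How reads were counted, with which strand setting and annotation, is left unstated in the sources used here. Gene positions and exon lengths come from GENCODE M21 on that build.

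Genes were kept by filterByExpr (minimum count 10), which left 15522, among them all 9 antagonists. Counts were scaled by TMM and tested with the edgeR 4.0.16 quasi-likelihood test (R 4.3.3), without covariates, and p-values were adjusted by Benjamini-Hochberg over every gene tested. Standard errors were taken from the log2 fold change and F. The fit was tested on simulated data. Alternatives used DESeq2 1.42.0, limma-voom 3.58.1, other scalings and filters, counts divided by 4 (small counts are multiples of 4 more often than evenly spread values would be), each library left out, and the replicate number as a block. The 9 genes and the gene lists were chosen with earlier results of these data known. Named genes are the 9, called genes plus up to 2 with the lowest p in each pathway list, and the nearest profiles. Some genes outside this rule are also named, among them Lef1, Myc, Igfbp4 and cell type markers.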

Additional observations from a re-analysis of the deposited data

How the results depend on the processing

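The direction of all 9 antagonists was kept under the 11 alternatives. These reuse the same libraries, and for genes whose groups do not overlap, as for most of the 9, the direction could hardly change. The share of all genes that kept their direction was not computed. The 61 genes called higher and 141 called lower became 116 higher with library sizes alone, 518 higher and 642 lower with DESeq2, 106 and 227 with limma-voom, and 128 and 243 with counts divided by 4. The antagonists called numbered 3 higher and 2 lower with DESeq2. Leaving out 1 library each gave 1 to 312 genes higher and 4 to 470 lower, and among the antagonists 0 to 2 higher and 0 to 2 lower; the lowest counts over all genes came without control replicate 1 and the highest without cKO replicate 1. The deviations of same-numbered libraries from their group means correlated at -0.12 over genes. With 2 libraries a group the deviations mirror each other, so this is 1 value and cannot decide whether the numbers pair the libraries. With the replicate block, 3 genes were called higher and 20 lower, with 1 antagonist higher, Sfrp1 (edgeR adjusted p = 0.0465), 1 lower, Frzb, and no feedback target called; each such fit keeps few residual degrees of freedom. With crossed numbers as the block, a choice made after seeing the data, 223 genes were called higher and 341 lower, with 3 antagonists higher and 2 lower. Trabd2b was at -0.38 with DESeq2, where it passed, and from -0.54 to -0.23 with 1 library left out. The cause of these differences was not tested. Among values of 1 to 20 counts, 29.98% to 32.0% per library were multiples of 4, where evenly spread values would give 25%. Depth limits Dkk2, with 7 to 66 counts a library.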
